A study of Mus musculus with 4 samples.

Results

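The 10 transcription factor genes described here mark limb and body position, and they were followed in mouse mammary cells with and without ΔNp63. The set held 10 of the 54393 gene identifiers in the table: Pitx1, the T-box genes Tbx3, Tbx4, Tbx5 and Tbx15, and the Hox genes Hoxa9, Hoxc8, Hoxc9, Hoxc10 and Hoxd9. They were matched by symbol to GENCODE M21, and they were chosen on earlier cKO against WT differences in the counts of these same libraries, to ask whether low Pitx1 comes with changes in other positional genes. Their differences between genotypes are therefore given as a description, from which no support is drawn, and tests are read only for their differences between time points. All 10 genes passed the filter on low counts, 8 of them with every library above the cutoff of 0.296 CPM, counts scaled to a common library size. Pitx1 and Tbx4 each passed with 3 of 4 libraries above it, the library below being cKO in both cases.

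The study deleted ΔNp63, the short isoform class of the epithelial transcription factor p63, in the mammary gland with a tamoxifen-inducible Cre. There were 2 cKO libraries, labelled Dnp63 cKO, and 2 WT libraries, and each genotype had 1 library harvested 10 days and 1 harvested 5 weeks after tamoxifen, which was given at 4 weeks of age (1.5 mg/ml). The growth protocol gives an older age for the later glands than these intervals add up to. The protocol names iK14-Cre; DNp63 f/f mice, in which a keratin 14 driver directs the Cre to cells that use that promoter, and it does not say which of these alleles the WT animals carried. Each library came from 100000 dissociated cells from which CD45, CD31 and Ter119 positive cells had been removed, and the labels do not say whether each library was a separate animal.

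Pitx1 is a homeodomain factor that in mouse embryos gives the hindlimb its identity, and Tbx4 is a T-box factor of the hindlimb bud that acts with it. Tbx5 is the forelimb counterpart of Tbx4, Tbx15 acts in the limb skeleton and in dorsal skin mesenchyme, and Tbx3 is needed for the mammary placode as well as for limb patterning. Hox genes lie in 4 clusters, and their order along a cluster follows the order of body levels at which they are used. Paralog groups near the low end of the numbering serve anterior levels, groups 8 to 10 serve the trunk and the proximal limb, and groups 11 to 13 serve the distal limb, the tail end and the urogenital tract.

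Promoter windows before RefSeq starts of these genes were read for short motifs. RefSeq promoter sequences (GRCm38.p6) matched 3 of the 10 genes, Tbx4, Hoxa9 and Hoxd9, and 22 of the 39 genes of the Hox clusters. In the 250 bases before each RefSeq start, 3 motifs were searched on both strands: TAATCC, the core bound by Pitx1, AGGTGT, a T-box half-site, and CATG followed after 6 bases by CATG, the core pair of a p63 site. TAATCC was found in 6.25% of the 32851 promoters in the table, AGGTGT in 11.8% and the CATG pair in 0.490%. Hoxd9 held AGGTGT, and the windows of Tbx4 and Hoxa9 held none of the 3. Among the 22 Hox promoters AGGTGT was found in 3 (Hoxa10, Hoxb4 and Hoxd9), TAATCC in 0 and the CATG pair in 0. A missing match says only that these letters are not in the window. The Tbx4 and Hoxa9 windows lie inside the genes as GENCODE M21 annotates them, not before their outermost starts. For Hoxd13, no annotated transcript held the bases checked after the window. The 30 bases around the Hoxd9 match are shown with the motif in capitals (chr2:74697604-74697633, plus strand), followed by the full windows of Tbx4 (chr11:85896515-85896764, plus strand) and Hoxa9 (chr6:52227371-52227620, minus strand). Hoxa13 (chr6:52260881-52261130, minus strand) and Hoxd13 (chr2:74667975-74668224, plus strand), the Hox genes outside the set with the largest genotype differences below, are shown beside them and also hold no match.
Hoxd9: ggataatcgcctAGGTGTgacttagaagcc
Tbx4: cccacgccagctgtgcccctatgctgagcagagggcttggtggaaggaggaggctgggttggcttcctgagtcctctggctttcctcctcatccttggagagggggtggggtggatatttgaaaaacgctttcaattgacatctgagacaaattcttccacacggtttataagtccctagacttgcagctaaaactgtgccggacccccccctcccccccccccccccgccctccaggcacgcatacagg
Hoxa9: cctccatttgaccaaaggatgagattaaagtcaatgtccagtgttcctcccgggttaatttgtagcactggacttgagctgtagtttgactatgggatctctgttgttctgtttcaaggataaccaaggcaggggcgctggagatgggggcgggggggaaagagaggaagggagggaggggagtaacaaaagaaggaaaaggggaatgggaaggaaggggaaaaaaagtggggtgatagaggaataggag
Hoxa13: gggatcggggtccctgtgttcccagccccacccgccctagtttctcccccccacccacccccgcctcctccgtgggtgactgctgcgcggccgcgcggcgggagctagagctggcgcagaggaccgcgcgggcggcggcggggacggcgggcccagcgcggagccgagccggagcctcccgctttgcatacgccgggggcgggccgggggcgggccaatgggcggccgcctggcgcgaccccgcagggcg
Hoxd13: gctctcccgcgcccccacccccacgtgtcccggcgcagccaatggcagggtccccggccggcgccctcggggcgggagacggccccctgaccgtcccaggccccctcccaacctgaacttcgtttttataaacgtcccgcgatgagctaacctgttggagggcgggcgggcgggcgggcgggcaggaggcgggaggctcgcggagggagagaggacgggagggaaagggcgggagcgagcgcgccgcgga

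The libraries held 31714181 counts (cKO, 10 days), 34230566 (cKO, 5 weeks), 33363255 (WT, 10 days) and 79122250 (WT, 5 weeks), so that a floor of 3 counts equalled 0.0944, 0.0884, 0.0871 and 0.0390 CPM in the same order. Trp63, which encodes p63, had 12.8 and 25.5 CPM in the cKO libraries at 10 days and 5 weeks, against 46.8 and 161 CPM in the WT libraries (log2 fold change -2.26 ± 0.267 SE, edgeR adjusted p = 0.107). This count covers all isoforms of the gene, not ΔNp63 alone. Summed markers of luminal epithelium (12 genes) ran between 8344 and 10598 CPM in cKO and between 8887 and 9038 CPM in WT, and those of fibroblasts (15 genes) between 40919 and 63899 CPM in cKO and between 34049 and 41591 CPM in WT. Mammary epithelial markers were thus present as the labels say, and fibroblast markers were present beside them. In such bulk samples, fewer cells of a type and less RNA per cell cannot be told apart.

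Pitx1 (ENSMUSG00000021506.7, chr13:55825051-55836192, minus strand) was much lower in cKO at both times. It had 0.189 CPM (6 counts) in cKO at 10 days and 0.795 CPM (27 counts) in cKO at 5 weeks, against 6.47 CPM (223 counts) in WT at 10 days and 73.2 CPM (5626 counts) in WT at 5 weeks. Both cKO libraries lay below both WT libraries, and the WT library at 5 weeks stood far above the other 3. The WT level was 34.3 times the cKO level at 10 days and 92.05 times at 5 weeks. The log2 ratio of cKO over WT was -4.80 at 10 days (95% counting interval -6.56 to -3.95) and -6.45 at 5 weeks (-7.13 to -5.98), intervals that cover counting error only. The fitted log2 fold change was -6.06 ± 0.443 SE, and leaving out the WT library at 5 weeks brought it to -3.70.

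Pitx1 was 1 of the 10 genes past an adjusted p of 0.05 for genotype (edgeR quasi-likelihood, Benjamini-Hochberg), where the share over all 18917 genes tested was 0.0581%. The rule that chose the genes used this contrast, so nothing is read from that count. The call was lost with each library left out in turn. The fit has 2 libraries of each genotype and 1 residual degree of freedom, and in simulated data it called 6 of 50 genes changed 2-fold and 46 of 50 changed 4-fold. Differences of about 2-fold or less, like those of most of the other 9 genes, were therefore mostly below what it could call. The simulation gave every gene the same dispersion. It placed changes only in genes with means above those of Tbx4, Tbx5, Hoxc8, Hoxc9 and Hoxd9. Its counts therefore do not apply to lower or more variable genes. Larger differences also went uncalled in the real data, such as the keratin gene Krt16 (log2 fold change -4.92 ± 0.607 SE, edgeR adjusted p = 0.197).

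**Figure D1:**
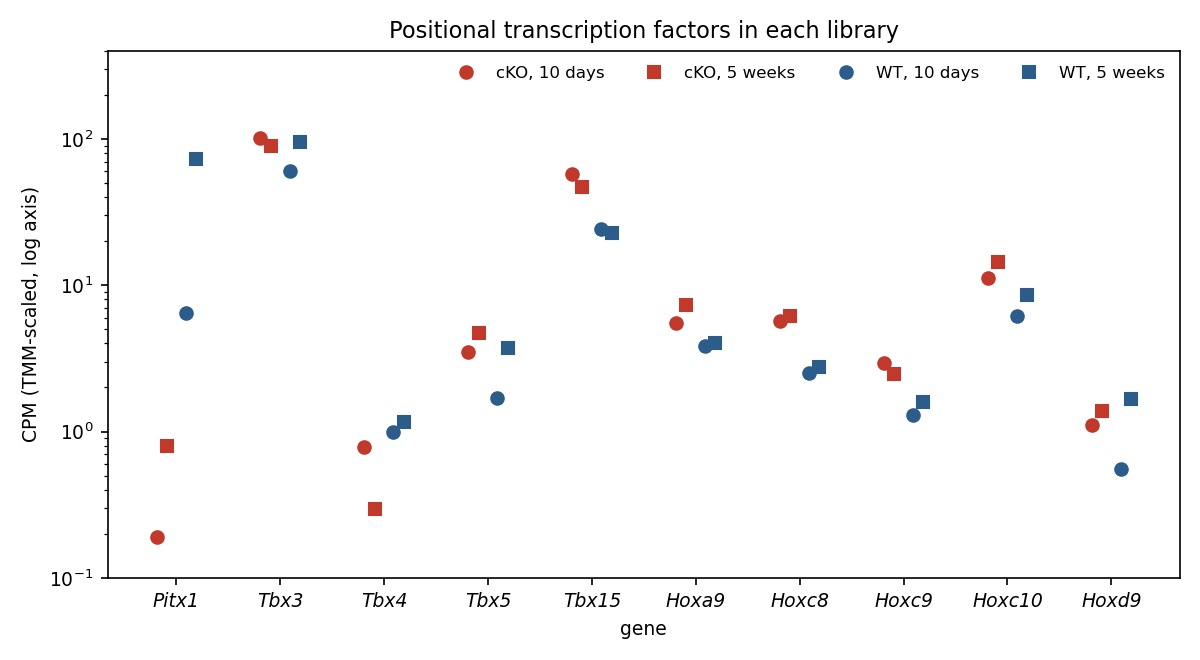
CPM (log scale) of the 10 genes, 1 point per library, with cKO left of WT and both time points marked. Pitx1 spans 0.189 to 73.2 CPM, with both cKO points below both WT points, while Tbx15, Hoxa9, Hoxc8, Hoxc9 and Hoxc10 have both cKO points above both WT points.

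Tbx4 (ENSMUSG00000000094.12, chr11:85886422-85916097, plus strand), the hindlimb partner of Pitx1, was the only other of the 10 with both cKO libraries below both WT libraries, a pattern shown by 23.3% of all genes tested. It had 0.787 CPM (25 counts) and 0.295 CPM (10 counts) in cKO at 10 days and 5 weeks, against 0.987 CPM (34 counts) and 1.16 CPM (89 counts) in WT. The ratio was -0.31 on the log2 scale at 10 days, with a counting interval of -1.13 to 0.46 that holds 0, and -1.82 at 5 weeks (-3.08 to -1.03). Tbx4 was the lowest of the 10 genes per length in these cells, so that its 10-day difference was not detectable at this depth.

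Tbx5 (ENSMUSG00000018263.11, chr5:119832668-119885219, plus strand), the forelimb counterpart, had higher values in cKO at each time, but the groups overlapped. It had 3.49 CPM and 4.68 CPM in cKO at 10 days and 5 weeks, against 1.68 CPM and 3.75 CPM in WT. On the log2 scale cKO exceeded WT by 1.03 at 10 days and by 0.32 at 5 weeks.

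Tbx15 (ENSMUSG00000027868.11, chr3:99240381-99354259, plus strand) had higher values in cKO, the opposite direction to Pitx1. It had 57.3 CPM (1821 counts) and 47.0 CPM (1596 counts) in cKO at 10 days and 5 weeks, against 24.2 CPM (832 counts) and 22.6 CPM (1739 counts) in WT. The 2 libraries of each genotype lay close together and the genotypes did not overlap. On the log2 scale cKO exceeded WT by 1.25 at 10 days and by 1.05 at 5 weeks, with a fitted log2 fold change of 1.15 ± 0.210 SE.

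Tbx3 (ENSMUSG00000018604.18, chr5:119670669-119684724, plus strand), the T-box factor of the mammary placode, was the highest of the 10 per length and did not differ in 1 direction. It had 100.67 CPM and 89.8 CPM in cKO at 10 days and 5 weeks, against 60.2 CPM and 95.3 CPM in WT. The WT library at 10 days was low and the other 3 lay close together, which gave log2 ratios of 0.74 at 10 days and -0.09 at 5 weeks. Its annotated exons share 115 bases with the antisense gene Tbx3os1, and the sources used here do not give the strand setting of the counting.

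The 3 HoxC genes of the set all had both cKO libraries above both WT libraries. Hoxc8 (ENSMUSG00000001657.7, chr15:102990607-102994111, plus strand), used at thoracic levels, had 5.67 CPM (180 counts) and 6.13 CPM (208 counts) in cKO at 10 days and 5 weeks, against 2.53 CPM (87 counts) and 2.76 CPM (212 counts) in WT. Its log2 ratio was nearly equal at the times, 1.15 at 10 days and 1.14 at 5 weeks, and the fitted log2 fold change was 1.16 ± 0.349 SE. Hoxc9 (ENSMUSG00000036139.6, chr15:102976439-102985099, plus strand), its neighbour in the cluster, had 2.96 CPM and 2.47 CPM in cKO at 10 days and 5 weeks, against 1.31 CPM and 1.60 CPM in WT. Its fitted log2 fold change was 0.90 ± 0.421 SE.

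Hoxc10 (ENSMUSG00000022484.7, chr15:102966796-102971893, plus strand), a gene of lumbar and hindlimb levels, was the highest Hox gene of the set per length. It had 11.2 CPM (357 counts) and 14.4 CPM (488 counts) in cKO at 10 days and 5 weeks, against 6.18 CPM (213 counts) and 8.55 CPM (657 counts) in WT, with a fitted log2 fold change of 0.80 ± 0.281 SE. Of its annotated exon, 8.70% overlaps an exon of Hoxc5 on the same strand, so part of its reads could be divided between the 2 genes. Hoxc10, a hindlimb-level gene like Pitx1, thus had its higher values in cKO, where Pitx1 was lowest.

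Hoxa9 (ENSMUSG00000038227.15, chr6:52223100-52231089, minus strand), a posterior trunk gene also known for its role in blood cell progenitors, had 5.54 CPM and 7.33 CPM in cKO at 10 days and 5 weeks, against 3.86 CPM and 4.01 CPM in WT. The genotypes did not overlap, and the fitted log2 fold change was 0.70 ± 0.342 SE. Hoxd9 (ENSMUSG00000043342.9, chr2:74697727-74700208, plus strand), its paralog in the HoxD cluster, had 1.10 CPM (35 counts) and 1.38 CPM (47 counts) in cKO at 10 days and 5 weeks, against 0.552 CPM (19 counts) and 1.67 CPM (128 counts) in WT. Both cKO libraries of Hoxd9 lay between the WT libraries, so its ratio changed sign, with log2 values of 0.94 at 10 days and -0.26 at 5 weeks.

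Read together, 5 of the 10 genes had both cKO libraries above both WT libraries (Tbx15, Hoxa9, Hoxc8, Hoxc9 and Hoxc10), where 22.6% of all genes tested did. At each time point separately, cKO exceeded WT for 6 of 10, those 5 and Tbx5, against 29.7% of all genes. The median genotype log2 fold change of the 10 genes was 0.69 (quartiles 0.32 and 0.87), and that of all genes tested was -0.01 (quartiles -0.29 and 0.32). In the cKO libraries, where Pitx1 was low, the values of Tbx4 were also lower, those of Tbx15, Hoxa9, Hoxc8, Hoxc9 and Hoxc10 were higher, and those of Tbx3, Tbx5 and Hoxd9 overlapped with WT.

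**Figure D2:**
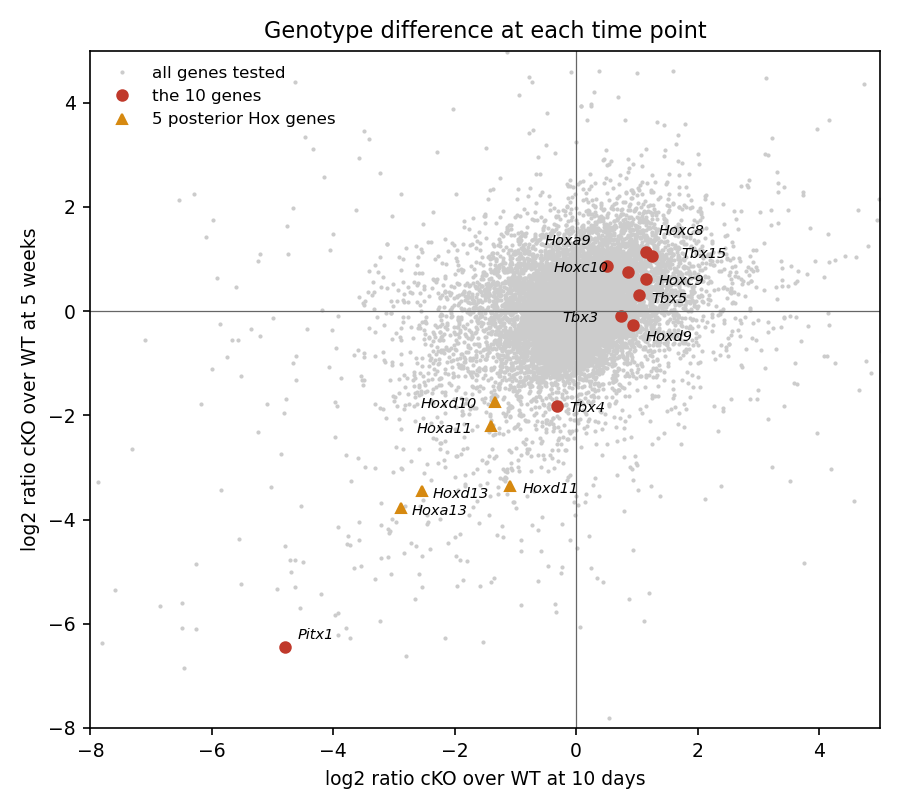
Log2 ratio of cKO over WT at 10 days (horizontal axis) and at 5 weeks (vertical axis), with the 10 genes as red circles, 5 Hox genes outside the set as orange triangles and all other genes tested in grey; grey points beyond the axes are not drawn. Pitx1 lies at -4.80 and -6.45, Tbx4 at -0.31 and -1.82, and 6 of the 10 genes are above 0 on both axes.

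Levels of the 10 genes were compared per length, as the mean CPM per kb of annotated exon over the 4 libraries. The order was Tbx3 (13.1 ± 2.73, SD, n = 4), Tbx15 (10.1 ± 4.58), Pitx1 (7.59 ± 13.4), Hoxc10 (5.28 ± 1.85), Hoxc8 (1.51 ± 0.668), Hoxa9 (0.929 ± 0.291), Hoxc9 (0.858 ± 0.315), Tbx5 (0.728 ± 0.268), Hoxd9 (0.550 ± 0.223) and Tbx4 (0.237 ± 0.110). Neighbours in this order had overlapping ranges, except Hoxc10, whose lowest library was above the highest of Hoxc8. Pitx1 alone of the 10 had an SD above its mean, since it ran between 0.0711 and 27.6 CPM per kb. In the WT library at 5 weeks it was the highest of the 10 genes, and in the cKO library at 10 days the lowest.

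The contrast between time points did not enter the choice of the genes and was tested for all 10. None of the 10 passed an adjusted p of 0.05 in edgeR's fit for 5 weeks against 10 days, where 0.0634% of all genes did, and 1 of 10, Pitx1, had an unadjusted p under 0.05, where 5.35% of all genes did. Pitx1 had 0.795 CPM in cKO and 73.2 CPM in WT at 5 weeks, against 0.189 CPM in cKO and 6.47 CPM in WT at 10 days. Its log2 fold change over time was 3.14 ± 0.414 SE, higher at 5 weeks in both genotypes, with an edgeR adjusted p of 0.170. DESeq2 put Pitx1 past the threshold (adjusted p = 3.00e-07) and no other of the 10, where it called 192 of 18917 genes, and limma-voom put 0 of the 10 past it, where it called 39. Over all alternatives the adjusted p of Pitx1 ran between 3.76e-14 and 0.999982, and without the WT library at 5 weeks, in a fit with no genotype term, its estimate over time was -2.06.

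The other 9 genes had edgeR adjusted p-values between 0.994 and 1 for time. Tbx5 and Hoxd9 had both 5-week libraries above both 10-day libraries, where 13.3% of all genes tested did, with log2 fold changes of 0.78 ± 0.398 SE for Tbx5 and 0.95 ± 0.535 SE for Hoxd9. Hoxc9 (0.01 ± 0.415 SE) and Hoxc8 (0.12 ± 0.345 SE) had the estimates nearest to 0, and the width of these errors does not show that they kept 1 level. Whether genotype acted differently at the 2 times could not be tested, since each combination is 1 library.

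The set holds 5 of the 39 Hox genes, and the rest of the clusters were read to see whether paralog groups differed. Of the 39, 31 were tested. None was past an adjusted p of 0.05 for genotype in edgeR's fit, and 8 had an unadjusted p under 0.05, where 5.80% of all genes did in each direction. DESeq2 called 1 of the 31 (Hoxd13), where it called 512 of 18917 genes, and limma-voom called 0, where it called 29. Of the 8, 3 were HoxC genes with higher values in cKO (Hoxc6, Hoxc8 and Hoxc10). Hoxc8 and Hoxc10 belong to the set and were chosen on this contrast, so their place in the count is no support. The other 5 were genes of groups 10 to 13 with lower values in cKO (Hoxa11, Hoxa13, Hoxd10, Hoxd11 and Hoxd13). Of the 5, all but Hoxd10 passed the filter only through WT and so had to differ, and nothing is read from their number. These genes, and the split of the paralog groups, were singled out after their values were seen.

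Hoxd13, a gene of the digits and the urogenital end of the body, had 0.0630 CPM (2 counts) and 0.236 CPM (8 counts) in cKO at 10 days and 5 weeks, against 0.581 CPM (20 counts) and 3.04 CPM (234 counts) in WT. Its fitted log2 fold change was -3.50 ± 0.576 SE (edgeR adjusted p = 0.198). Hoxa13, its paralog in HoxA, had 1 and 2 counts in cKO at 10 days and 5 weeks, against 18 and 107 counts in WT, with a log2 fold change of -4.29 ± 0.686 SE (edgeR adjusted p = 0.187). Hoxa13 was under the floor of 3 counts in both cKO libraries, so its fitted fold change depends on the prior count. Both genes were highest in the WT library at 5 weeks, the library in which Pitx1 was also highest.

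Hoxa11, which patterns the zeugopod of the limb, had 4 and 5 counts in cKO at 10 days and 5 weeks, against 14 and 65 counts in WT. Hoxd11, its paralog, had 4 and 2 counts in cKO, against 11 and 79 counts in WT. Hoxd10 had 5 and 15 counts in cKO, against 16 and 122 counts in WT, while the neighbouring Hoxd9 of the set did not separate the genotypes. Their log2 fold changes were -2.13 ± 0.613 SE for Hoxa11, -2.69 ± 0.849 SE for Hoxd11 and -1.72 ± 0.529 SE for Hoxd10 (edgeR adjusted p between 0.327 and 0.359). Hoxa11, Hoxa13, Hoxd11 and Hoxd13 each lay below the filter cutoff in both cKO libraries. Hoxc11 did not follow them, with 1.04 and 0.619 CPM in cKO at 10 days and 5 weeks, against 0.552 and 0.690 CPM in WT.

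Summed over all 9 genes of groups 11 to 13, tested or not, the level was 1.39 and 1.24 CPM in cKO at 10 days and 5 weeks, against 2.38 and 7.13 CPM in WT. Summed over all 30 genes of groups 1 to 10, it was 89.7 and 95.7 CPM in cKO, against 51.7 and 81.6 CPM in WT. The cKO libraries thus had the lower sums for the posterior groups and the higher sums for the rest. By cluster, the median log2 fold change of the tested genes was 0.70 for HoxA, 0.22 for HoxB, 0.90 for HoxC and -1.04 for HoxD. The HoxA and HoxD values include genes that passed the filter through WT alone. The HoxA, HoxC and HoxD values also include genes of the set, chosen on this contrast, and the HoxC median is the value of Hoxc9 itself. Of the 26 tested genes of groups 1 to 10, 14 had both cKO libraries above both WT libraries, where 22.6% of all genes tested did. Of these 14, the 4 genes Hoxa9, Hoxc8, Hoxc9 and Hoxc10 belong to the set and were chosen on this contrast.

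**Figure D3:**
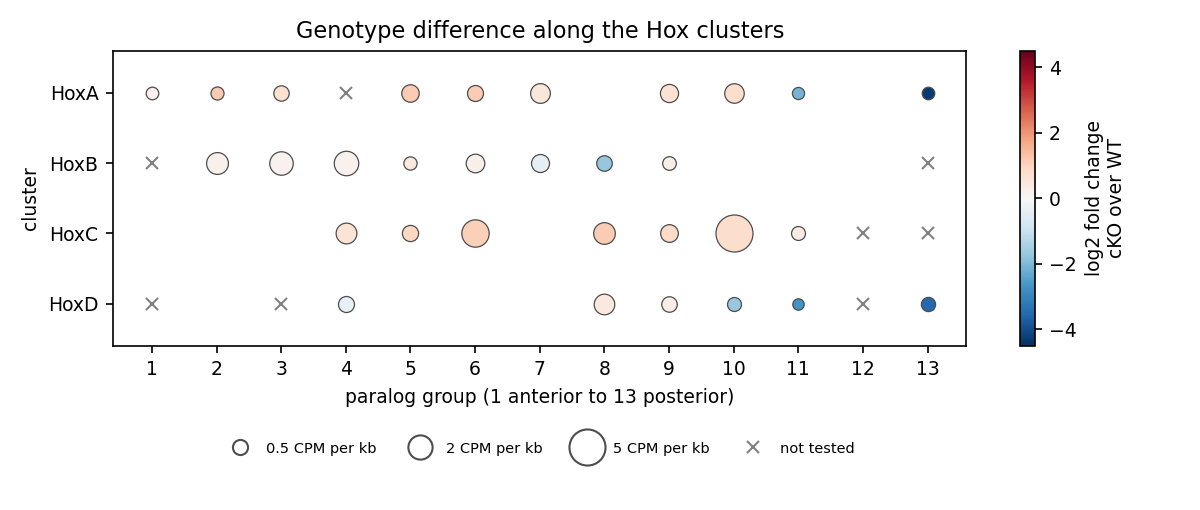
The 39 Hox genes by paralog group (horizontal axis) and cluster (rows), with circle size rising with the mean CPM per kb over the 4 libraries, colour for the log2 fold change of cKO over WT (red higher, blue lower in cKO), and a cross for genes not tested. The tested HoxC genes are pale red, and the deepest blue is at Hoxa13 (-4.29) and Hoxd13 (-3.50).

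The gene with the highest level per length in each cluster was Hoxa7 for HoxA, Hoxb4 for HoxB, Hoxc10 for HoxC and Hoxd8 for HoxD, and their genotype log2 fold changes were 0.51, 0.21, 0.80 and 0.44 in that order. Hoxb3, the Hox gene with the highest mean CPM after Hoxc10, differed by 0.18 ± 0.299 SE. Hoxb8 was high in 1 library, with 17 and 10 counts in cKO at 10 days and 5 weeks, against 10 and 369 counts in WT. Among loci inside the clusters that are not Hox genes, Hoxa11os, the antisense partner of Hoxa11, had 2 and 6 counts in cKO, against 18 and 157 counts in WT (log2 fold change -3.33 ± 0.595 SE, edgeR adjusted p = 0.217), and it too passed the filter only through WT. Hotair, the RNA from the HoxC cluster, had 1 and 4 counts in cKO, against 1 and 3 counts in WT, too few to be tested.

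Of the 17 T-box genes, 10 were tested, with a median genotype log2 fold change of 0.60. That median includes Tbx3, Tbx4, Tbx5 and Tbx15, which were chosen on this contrast. It also includes Eomes, which passed the filter only through cKO, so nothing is read from it. Mga, a MAX dimerization partner and the T-box gene with the highest mean CPM, had 97.0 and 109 CPM in cKO at 10 days and 5 weeks, against 77.0 and 77.2 CPM in WT. The 9 Hox cofactors, PBC and MEIS class factors that bind DNA with Hox proteins, had a median of -0.02. Meis1 had a log2 fold change of -0.20 ± 0.371 SE. The 24 Polycomb and Trithorax genes, which keep Hox genes silent or active, had a median of -0.06, with Kdm6b at 0.14 ± 0.268 SE and Kmt2d at 0.03 ± 0.221 SE.

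Of 25 other limb mesenchyme factors, 18 were tested, with a median of 0.21. Prrx1, which marks limb bud mesenchyme and fibroblasts, had 113 and 179 CPM in cKO at 10 days and 5 weeks, against 41.8 and 71.7 CPM in WT (log2 fold change 1.38 ± 0.194 SE, edgeR adjusted p = 0.137). Lmx1b, which sets dorsal limb identity, differed by 0.04 ± 0.201 SE. At an unadjusted p under 0.05, 3 of the 18 were lower in cKO (Isl1, Sall1 and Dlx5) and 4 were higher (Prrx1, Shox2, En1 and Twist1), where 5.80% of all genes were in each direction. Sall1 passed the filter only through WT, and the list was chosen with earlier results of these data known, so that count is no support. Isl1, the hindlimb initiation factor, had 0.441 CPM (14 counts) and 2.03 CPM (69 counts) in cKO at 10 days and 5 weeks. In WT it had 1.97 CPM (68 counts) and 5.48 CPM (421 counts), and its fitted log2 fold change was -1.75 ± 0.435 SE. Dlx5, a factor of the limb ectoderm and the branchial arches, had 26 and 48 counts in cKO, against 109 and 744 counts in WT. Scaled for library size, its fitted log2 fold change was -2.38.

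Of 15 limb signalling genes, 11 were tested, with a median of 0.69, and of 20 mammary placode genes 19 were tested, with a median of 0.24. Wnt5a, a ligand of limb outgrowth, differed by 0.65 ± 0.223 SE and Cyp26b1, which degrades retinoic acid in the limb, by 1.04 ± 0.555 SE. The placode receptor gene Fgfr2 differed by 0.24 ± 0.280 SE and Gata3 by 0.12 ± 0.196 SE. At an unadjusted p under 0.05 in edgeR's fit, 4 of the 11 signalling genes were higher in cKO (Fgf10, Grem1, Wnt5a and Bmp2) and 1 was lower (Bmp7). Of the 19 placode genes, 2 were higher (Wnt10b and Fgf10), against the same 5.80% of all genes in each direction. Both lists hold Fgf10 and were chosen with earlier results of these data known, so these counts are no support.

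The neighbourhood of Pitx1 was read for a shift over the region. Within 500 kb of Pitx1 lay 39 annotated genes, of which 21 were tested. Their median genotype log2 fold change was -0.20, and in 12 of the 21 cKO had the lower value at each time, where 30.5% of all genes did. Pcbd2, 48.2 kb away, differed by -0.27 on the log2 scale and Txndc15, 98.8 kb away, by 0.15, both far from the -6.06 of Pitx1. The antisense gene Gm47071 overlaps 6.21% of the Pitx1 exons, and it had 25 and 10 counts in cKO at 10 days and 5 weeks, against 13 and 194 counts in WT. Its log2 ratio of cKO over WT was 0.98 at 10 days, opposite to Pitx1, and -2.92 at 5 weeks. Like Pitx1, it was highest in the WT library at 5 weeks. Gm28760, a noncoding gene on the same strand, shares 4.07% of the Pitx1 exons. It had 28 counts in the WT library at 5 weeks and 0 in each of the others, too few to be tested.

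The genes whose pattern over the 4 libraries was most like that of Pitx1 were found by the distance between log2 CPM values centred on their mean, among 11881 genes reaching 5 CPM. The nearest were Upk3bl (distance 0.645), Sprr2f (0.794), Slc16a14 (0.825), Sptssb (0.906), Krt13 (1.07), Tmprss11g (1.17), Teddm3 (1.19) and Krt16 (1.29). Upk3bl, Slc16a14, Sptssb and Teddm3 had 0 counts in the cKO library at 10 days, so their distances depend on the prior count of 2. Sprr2f encodes a cornified envelope precursor, Krt13 and Krt16 encode keratins of stratified epithelium, and Upk3bl encodes a uroplakin-like protein. Krt13 had 0.661 and 5.15 CPM in cKO at 10 days and 5 weeks, against 54.0 and 358 CPM in WT. No positional gene was among the 8, but many could not be ranked. The limit of 5 CPM left out Tbx4, Tbx5, Hoxc9, Hoxd9, Hoxa11, Hoxa13, Hoxd10, Hoxd11 and Hoxd13. Dlx5 was at rank 78 and Isl1 at rank 131 of the 11881.

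**Figure D4:**
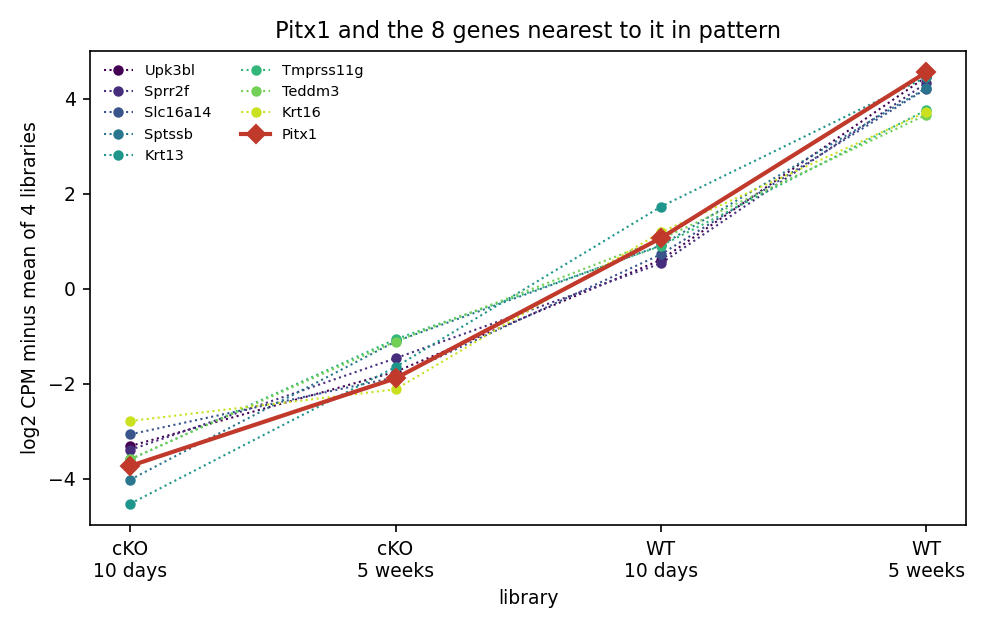
Log2 CPM centred on the mean of the 4 libraries for Pitx1 and for the 8 genes nearest to it, with the libraries along the horizontal axis and the cKO libraries left of the WT libraries. All 9 lines are lowest in cKO at 10 days and highest in WT at 5 weeks.

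Markers of cell types moved with these values. Summed over 16 markers of squamous epithelium, the level was 184 and 290 CPM in cKO at 10 days and 5 weeks, against 1014 and 5233 CPM in WT. The median log2 fold change of the 16 was -3.67. Of the 16, 1 was at 0 counts in the cKO library at 10 days. This list and the basal one were chosen with earlier results of these data known, so no support is drawn from calls in them. In edgeR's fit 6 of 16 fell in cKO (Krt13, Krt6b, Krt15, Dsg3, Krtdap and Spink5), where 0.0529% of all genes did. That number was 3 with upper-quartile factors and 0 with no block, without either cKO library or without the WT library at 5 weeks, against 9 with DESeq2 and 7 with limma-voom; where it was 0, between 4 and 11 of the 16 had an unadjusted p under 0.05. The 12 basal markers summed to 2496 and 2629 CPM in cKO, against 6487 and 18549 CPM in WT. Of the 12, 9 had both cKO libraries below both WT libraries, where 23.3% of all genes tested did. Oxtr, Acta2 and Myh11 did not, and 0 of the 12 passed an adjusted p of 0.05 for genotype in edgeR's fit. Krt5 had 123 and 236 CPM in cKO, against 1018 and 7826 CPM in WT, and ranked 16 among the genes most like Pitx1, and Krt14 differed by -3.17 ± 0.728 SE. These sums were lowest in cKO and highest in the WT library at 5 weeks, as were Pitx1, Hoxa13 and Hoxd13, and their part in those results was not tested.

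Marker sums of most other cell types were higher in cKO at each time, as were Tbx15, Hoxa9, Hoxc8, Hoxc9 and Hoxc10. The exceptions were the fibroblast sum, higher in cKO only at 5 weeks, and the luminal sum, higher only at 10 days. The fibroblast sum was 40919 and 63899 CPM in cKO at 10 days and 5 weeks, against 41591 and 34049 CPM in WT. Of the 15 fibroblast markers, 8 had both cKO libraries above both WT libraries and 0 had both below, where 22.6% and 23.3% of all genes tested did. This list too was chosen with earlier results of these data known, so the count is no support. The median log2 fold change of the 15 was 0.53. The pericyte sum (8 genes) was 772 and 875 CPM in cKO, against 575 and 653 CPM in WT. The adipocyte sum (12 genes) was 1346 and 583 CPM in cKO, against 346 and 357 CPM in WT. The skeletal muscle sum (12 genes) was 64.7 and 58.1 CPM in cKO, against 21.3 and 45.5 CPM in WT, and the leukocyte and endothelium sum (10 genes) was 222 and 303 CPM in cKO, against 181 and 171 CPM in WT. No marker of these lists was at 0 counts in any library, and their part in the higher values was not tested.

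**Figure D5:**
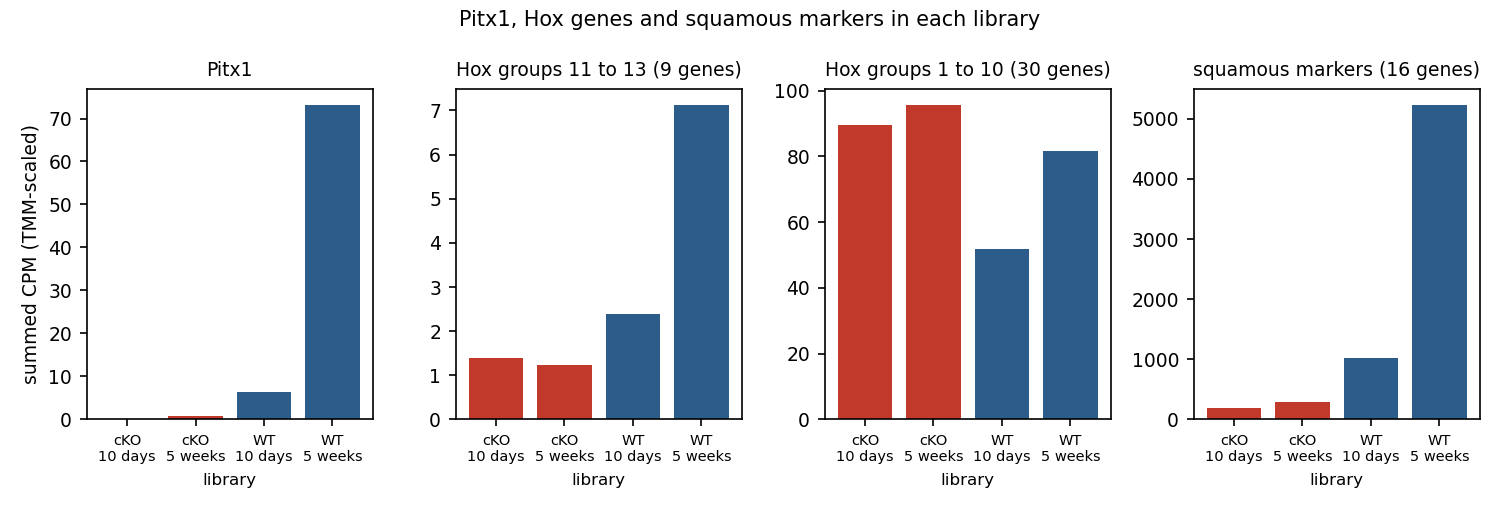
Bars give the CPM of Pitx1 and the summed CPM of Hox groups 11 to 13, Hox groups 1 to 10 and the squamous markers in each library, on linear axes from 0, with the cKO libraries (red) left of the WT libraries (blue). Pitx1, Hox groups 11 to 13 and the squamous markers are highest in WT at 5 weeks, at 73.2, 7.13 and 5233 CPM, and Hox groups 1 to 10 are lowest in WT at 10 days, at 51.7 CPM.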

How the data were processed

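RNA sequencing counts of 4 mouse mammary libraries were analysed, 2 cKO and 2 WT, grouped by the genotype label and by the time label (10 days or 5 weeks). The authors deposited estimated counts per gene, whole numbers already, so that they were not rounded further. Per the submitters' processing notes, the tool was Salmon (version not named) and the build GRCm38. Neither the annotation nor the strand setting is stated. All 54393 identifiers matched GENCODE M21, which supplied symbols, positions and exon lengths, and 0 columns belonged to other samples.

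The filter on low counts, filterByExpr with a minimum count of 10, left 18917 genes with 99.9% of counts. A robust quasi-likelihood fit of TMM-scaled counts on genotype and time point was made with edgeR 4.0.16 under R 4.3.3, with Benjamini-Hochberg adjustment over all genes tested and a threshold of 0.05. Ratios of cKO over WT at 1 time were differences of log2 CPM (prior count 2). Exact Poisson intervals (95%) and floors of 3 counts cover counting error only. The libraries held between 31714181 and 79122250 counts, and the common biological coefficient of variation was 0.286. Chi-square per degree of freedom between the libraries of 1 genotype was 102 for cKO and 205 for WT, so none is a copy of another. Since each combination of genotype and time is 1 library, the 1 residual degree of freedom is how the genotype difference varied between the times. The p-values rest on that spread, with information shared over genes, and not on a spread among replicates. That spread may be technical.

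The 10 genes and all lists were chosen with earlier results of these data known. Named outside them were, per list, up to 3 genes past the genotype threshold or otherwise the 2 with the highest mean CPM, the top Hox gene per length in each cluster, the 3 tested genes nearest to Pitx1, and the 8 nearest to it in pattern. The luminal, fibroblast, pericyte, adipocyte, skeletal muscle and leukocyte lists are given as sums only. Other names were chosen after their values were seen. Some genes that the rule or the lists cover are not reported here. Scripts were tested on simulated counts of 18917 genes with the same dispersion for every gene, where 4 of 18717 unchanged genes were called. Alternatives were DESeq2 size factors and upper-quartile factors in edgeR, no filter, DESeq2 1.42.0, limma-voom (limma 3.58.1), a non-robust fit, no block, and each library left out. The time term serves as the block, as the labels number no replicates.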

Additional observations from a re-analysis of the deposited data

Results flagged for a closer look

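Tbx3 and Hoxd9 had a cKO over WT ratio of opposite sign at the 2 time points, and this difference was not tested because each combination of genotype and time is 1 library. The log2 ratio of Tbx3 was 0.74 at 10 days and -0.09 at 5 weeks, a difference of 0.83. That of Hoxd9 was 0.94 at 10 days and -0.26 at 5 weeks, a difference of 1.20, and its 5-week counting interval of -0.78 to 0.23 holds 0. In both genes the WT library at 10 days had the lowest CPM of the 4.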

How the results depend on the processing

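The count of genes called for genotype was 11. It was 5 with DESeq2 size factors, 3 with upper-quartile factors, 1235 with no filter on low counts, 512 with DESeq2, 29 with limma-voom and 0 with no block for time (2182 at an unadjusted p under 0.05). With 1 library left out it ran between 0 and 60, being 60 without the WT library at 10 days, 1 without the WT library at 5 weeks and 0 without either cKO library (1396 and 1111 at an unadjusted p under 0.05 without the one at 10 days and at 5 weeks). The count for time was 12, and it was 638 with no filter, 192 with DESeq2, 39 with limma-voom, 1 with no block for genotype, and between 0 and 18 with 1 library left out. A fit without 1 library drops the other term, so the lone library of a genotype or time is assumed to vary like the others. Its time estimates also take in differences between genotypes, and its genotype estimates differences between times. Of the values of single genes recomputed under the alternatives, leaving out the Pitx1 genotype difference given below, 659 kept their call or moved within their error. Of the same values, 40 gained a call and 20 lost one. A further 8 moved beyond their error, and 28 reversed in sign, a class not used for genotype values of the 10 genes without a call.

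The Pitx1 difference between genotypes kept its sign under all 11 alternatives and ran between -7.71 and -3.70 with 1 library left out. It stayed within its error under 8 of the 11 and moved beyond it under 3. Its adjusted p was 0.0620 with DESeq2 size factors, 0.0742 with upper-quartile factors and 0.391 with no block for time, and it was between 0.111 and 0.824 with 1 library left out, against 3.76e-48 with no filter. The median over the 10 genes stayed between 0.35 and 1.05. Tbx15, Hoxa9, Hoxc8, Hoxc9 and Hoxc10 were above 0 under all 11, and Tbx15 was past the threshold with DESeq2 (adjusted p = 0.00944) and with no filter.

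Outside left-out libraries the time difference of Hoxc9 reversed (-0.0065 with upper-quartile factors and -0.070 with no block for genotype); the cause was not tested. With 1 library left out, genotype differences that changed sign ran between -0.0017 and 0.66 for Tbx3, -0.42 and 1.17 for Hoxd9, -0.16 and 2.32 for Cyp26b1, -0.25 and 0.75 for Fgfr2, -0.037 and 0.25 for Gata3, -2.31 and 0.51 for Gm47071, -0.20 and 0.63 for Hoxb4, -3.53 and 0.51 for Hoxb8, -0.016 and 0.71 for Hoxc11, -0.10 and 0.34 for Kdm6b, -0.062 and 0.11 for Kmt2d, -0.070 and 0.16 for Lmx1b, -0.81 and 0.43 for Meis1, and -0.62 and 0.12 for Pcbd2. Time differences ran between -0.25 and 0.64 for Hoxa9, -0.042 and 0.86 for Hoxc10, -0.58 and 0.78 for Hoxc8, and -0.54 and 0.60 for Hoxc9. They ran between -2.06 and 7.60 for Pitx1, -0.86 and 0.49 for Tbx15, -0.12 and 0.58 for Tbx3, and -1.58 and 0.36 for Tbx4. These fits have no genotype term and hold 1 genotype only at 1 of the times, so the estimates include genotype differences. Within a genotype, the 5-week level over the 10-day level was 0.94 (WT) and 0.82 (cKO) for Tbx15. For Hoxc8 it was 1.09 (WT) and 1.08 (cKO).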
